A study of Gallus gallus with 6 samples.

Results

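The 5 genes PENK, CLEC3B, PTGDS, MGP and RGS5 were followed through the regeneration cycle of the contour feather. They were chosen by their values in the growth phases, abundant in early growth and almost absent in late growth, out of 23724 genes in the table of TPM values, levels scaled for gene length and library size. All 5 were found by symbol and all 5 were among the 13063 genes with a mean above 1 TPM that entered the tests. Papilla ectoderm, the epidermal layer that covers the dermal papilla at the base of the follicle, was profiled by bulk RNA-seq in 6 libraries. The follicles were those of untreated White Leghorn roosters, sampled 3, 7 and 10 weeks into regeneration, with 2 libraries each. The labels place the first of these times in early growth, the next in late growth and the last in the resting phase. The birds were males between 6 months and 1 year old, and EDTA in a saline without calcium or magnesium freed the layer from the papilla. Whether both libraries of a phase stem from 1 bird is not stated, so each p value measures only the spread between these samples, which may be technical.

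A feather follicle pairs an epidermal cup, which makes the feather, with a dermal papilla and a vascular pulp, which signal to it and feed it. The pulp is drawn back as growth ends, and the papilla stays for the next cycle. The products of PENK, CLEC3B, PTGDS and MGP are secreted. PENK encodes proenkephalin, the precursor that is cut into the opioid peptides called enkephalins. CLEC3B encodes tetranectin, a C-type lectin that binds plasminogen. PTGDS encodes the lipocalin-type prostaglandin D synthase, which makes prostaglandin D2 and also carries lipophilic molecules. MGP encodes matrix Gla protein, an inhibitor of calcification that vitamin K-dependent carboxylation activates. RGS5, which speeds the shut-off of G protein signalling, works inside the cell and marks pericytes and vascular smooth muscle in mammals, so the word secreted does not cover it.

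Transcripts of genes that define dermal fibroblasts were present in the libraries of every phase, and their summed level was lowest in late growth. The 26 listed genes, collagens, DCN, LUM and PRRX1 among them, summed to 3223 and 3322 TPM in early growth, 527 and 551 TPM in late growth, and 4277 and 4382 TPM in the resting phase. DCN, at 227 and 238 TPM, and SPARC, at 205 and 209 TPM, held most of the late growth sums. Other markers were far lower there, such as COL1A2 at 6.72 and 5.75 TPM and PRRX1 at 2.11 and 1.69 TPM. Keratinocyte genes were abundant in every library, and their sums were 12860 and 13860 TPM in early growth, 10740 and 11020 TPM in late growth, and 10280 and 10430 TPM in the resting phase. Of the fibroblast markers, CRABP1 and CXCL14 were listed at 0 in both late growth libraries, while COL14A1 and PI15 were lowest in the resting phase. CRABP1 was also at 0 in early growth replicate 2 and in both resting libraries. Fewer cells of a type and less RNA per cell cannot be told apart in such samples, for these markers and for all 5 genes. Whether their transcripts came from the epidermal layer or from dermis left on it was not tested. The libraries held 11691 to 13334 genes above 1 TPM, the 2 libraries of early growth differed more than those of the other phases (log2 SD 0.56, while late growth had 0.27 and the resting phase 0.37), and the number of reads behind a value is unknown.

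PENK was the most abundant of the 5 in the growing follicle. It stood at 1024 and 1094 TPM in early growth, 12.3 and 11.8 TPM in late growth, and 309 and 317 TPM in the resting phase. No phase overlapped another, and the resting level lay between the others. Its early growth level placed it at ranks 122 and 123 among all genes of its libraries. It was also the only one of the 5 that kept a clear level in late growth, 1.14% of the early growth mean.

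CLEC3B stood at 152 and 146 TPM in early growth, 0.731 and 1.06 TPM in late growth, and 107 and 104 TPM in the resting phase. Both resting libraries were below both early growth libraries and far above those of late growth. The call of this step down from early growth depended on the scaling and on single libraries. The gene overlaps CDCP1 in the RefSeq annotation of GRCg7b, as RGS5 overlaps LOC121111356, while the TPM values were made on GRCg6a. The libraries do not mark strand, so reads of a stretch shared by such partners cannot be told apart. In late growth CDCP1 stood at 30.7 and 34.7 TPM, far above CLEC3B.

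PTGDS stood at 35.5 and 57.7 TPM in early growth, had 0 TPM listed for each late growth library, and stood at 317 and 334 TPM in the resting phase. The early growth pair of this synthase differed by 0.68 on the log2 scale, more than the median of 0.22 for genes of at least 10 TPM in that phase. Even so, both resting libraries were far above both. No fold against late growth can be given for a gene listed at 0.

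MGP stood at 40.2 and 39.7 TPM in early growth, likewise had 0 TPM listed for each late growth library, and stood at 303 and 307 TPM in the resting phase. The 2 libraries of a phase were nearly equal, and the resting phase was the highest. Reference genes that every cell uses, 10 in number, were above 0 in all 6 libraries. Most of them were far more abundant than MGP in early growth, so this does not bear on its listed zeros.

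RGS5 stood at 123 and 123 TPM in early growth, 0.571 and 0.399 TPM in late growth, and 180 and 185 TPM in the resting phase. Both resting libraries were above both early growth libraries, by a smaller step than for PTGDS and MGP. The late growth mean of this regulator was 0.394% of its early growth mean, and that of CLEC3B was 0.599%.

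**Figure D1:**
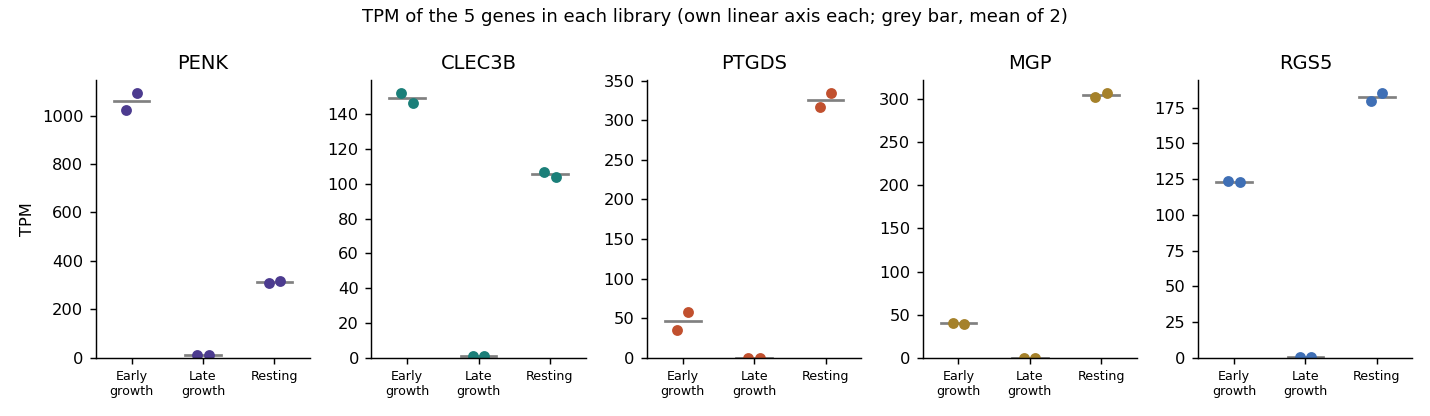
TPM of each of the 5 genes (vertical axis, linear and separate for each gene) in the 2 libraries of early growth, late growth and the resting phase; points are libraries and the grey bar is the mean of 2. PENK and CLEC3B were highest in early growth, at 1059 and 149 TPM on average, and PTGDS, MGP and RGS5 in the resting phase, at 326, 305 and 182 TPM.

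The drop into late growth is the pattern by which these genes were picked, so it was not tested. Among all 13063 genes, 28.4% were called lower and 5.24% higher in late growth than in early growth (limma, adjusted p under 0.05), and nothing is read from the members against these shares. As a sum the 5 genes made up 1375 and 1461 TPM in early growth, 13.6 and 13.2 TPM in late growth, and 1215 and 1248 TPM in the resting phase. The summed level in the resting phase thus came close to that of early growth while its makeup changed. PENK supplied 25.4% of the sum in both resting libraries, against 74.5% and 74.9% in the early growth libraries.

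All 5 genes were higher in the resting phase than in late growth. Over all genes 24.7% were called higher and 23.1% lower in this comparison, with a median difference of 0.02 on the log2(TPM + 1) scale, on which changes of low genes are understated. PENK differed by 4.59 on this scale (SE 0.08, adjusted p = 1.6e-06), a resting mean of 313 ± 5.79 TPM against a late growth mean of 12.04 ± 0.385 TPM (SD, n = 2 each). CLEC3B differed by 5.82 (SE 0.14, adjusted p = 4.2e-06), with a resting mean of 105 ± 1.95 TPM and a late growth mean of 0.894 ± 0.230 TPM. RGS5 differed by 6.95 (SE 0.13, adjusted p = 1.9e-06), with a resting mean of 182 ± 4.05 TPM and a late growth mean of 0.485 ± 0.122 TPM. The adjusted p values of PTGDS and MGP were 6.3e-06 and 1.6e-06, with both late growth libraries at 0. Because the late growth values helped choose these genes, none of them had much room to be lower in the resting phase. All 5 calls were made under each of the 16 other settings of the fit, and also at 2 stricter thresholds. For the same reason this adds no support of its own.

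The return was unequal when the resting phase was set against early growth. PTGDS, MGP and RGS5 were above their early growth levels, and PENK and CLEC3B were below theirs, so 3 were called higher and 2 lower, while 15.8% of all genes were called higher and 34.0% lower. The early growth values helped choose the genes as well, which tilts a difference of this kind downward. MGP stood at 7.63-fold its early growth mean, a log2 difference of 2.90 (95% confidence interval 2.57 to 3.23, adjusted p = 4.1e-05). PTGDS stood at 6.99-fold its own, a log2 difference of 2.82 (interval 2.24 to 3.4, adjusted p = 0.00029). The late growth zeros of MGP and PTGDS enter the spread behind these values while varying not at all. With only the 2 phases compared in the limma fit, adjusted p was 0.000379 for MGP and 0.00214 for PTGDS. RGS5 reached 148% of its early growth mean, a log2 difference of 0.56 (interval 0.25 to 0.87, adjusted p = 0.012). CLEC3B reached 70.6% of its early growth mean, a log2 difference of -0.50 (interval -0.84 to -0.16, adjusted p = 0.027). PENK reached 29.6%, a log2 difference of -1.75 (interval -1.94 to -1.57, adjusted p = 3.4e-05).

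The median of all tested genes was itself lower in the resting phase than in early growth, by -0.27 on the log2 scale. Relative to it the differences were 3.17 for MGP, 3.09 for PTGDS, 0.83 for RGS5, -0.23 for CLEC3B and -1.48 for PENK. The small difference of CLEC3B was called in 7 of the 16 other settings and had values between -0.53 and -0.16. It missed the threshold when any 1 library of early growth or the resting phase was left out, with adjusted p between 0.058 and 0.13. RGS5 was called in 14 of 16 settings and missed the threshold without either resting library (adjusted p = 0.0731 and 0.0884). The differences of PENK, PTGDS and MGP were called in all 16. A stricter threshold that also asks for a log2 fold change over 1 left PENK, PTGDS and MGP called, and one of over 2 with adjusted p under 0.01 left PTGDS and MGP.

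**Figure D2:**
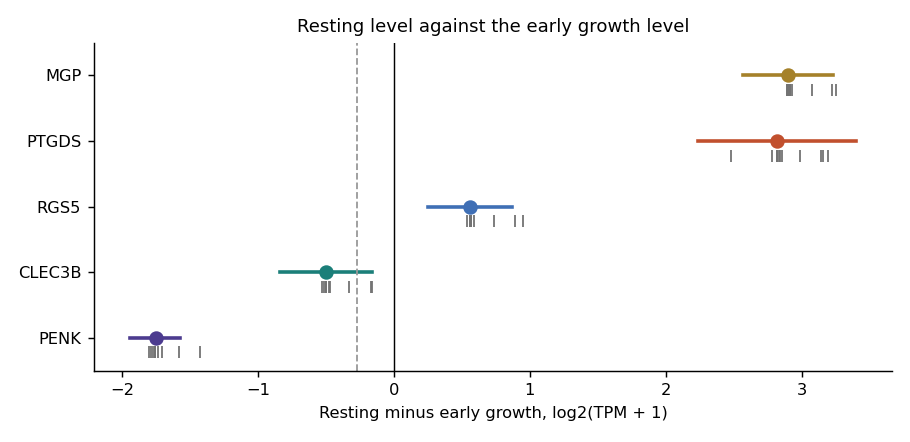
Resting minus early growth difference in log2(TPM + 1) (horizontal axis) for each gene; the point and bar are the fitted difference and its 95% confidence interval, the small ticks below are the values under the 16 other settings, and the dashed line is the median of all tested genes at -0.27. MGP and PTGDS lie near 3, RGS5 and CLEC3B lie at 0.56 and -0.50, and PENK lies at -1.75.

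The order of the 5 genes therefore differed between the phases with high levels. In the resting phase PTGDS, PENK and MGP stood together, at ranks between 315 and 350 of their libraries. PENK over MGP had a ratio of 1.02 and 1.03 in the resting phase, against 25.5 and 27.6 in early growth. RGS5 passed CLEC3B, with a ratio of RGS5 over CLEC3B of 1.68 and 1.78 in the resting phase, against 0.811 and 0.841 in early growth. The ratio of MGP over PTGDS was 0.957 and 0.919 in the resting phase, against 1.13 and 0.689 in early growth, which does not separate them in a constant order. Across the 6 libraries, which share their scaling and 3 phases, the Pearson correlation of log2(TPM + 1) was highest between PTGDS and MGP (r = 0.998) and lowest between PENK and MGP (r = 0.811), as a description.

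For each of the 5, the 3 genes with a symbol that correlated most highly with it were found in the rest of the table (Pearson r over 6 libraries, described only, which does not reflect the size of a change). For PENK these were FKBP9, an endoplasmic reticulum foldase (r = 0.9997), YF5 (r = 0.9987) and NID1, which encodes the basement membrane protein nidogen (r = 0.9985). FKBP9 kept much more of its level than PENK, with 204.5 and 206.1 TPM in early growth and 65.01 and 65.65 TPM in late growth. NID1 stood at 88.8 and 91.3 TPM in early growth, 0.613 and 0.933 TPM in late growth, and 31.4 and 36.2 TPM in the resting phase. For CLEC3B they were COL6A2, a collagen VI chain (r = 0.9995), VWF, a clotting protein of endothelium (r = 0.9992), and ACTA2, the smooth muscle alpha-actin (r = 0.9989). COL6A2 stood at 307 and 304 TPM in early growth, 4.16 and 4.51 TPM in late growth, and 194 and 211 TPM in the resting phase.

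For PTGDS the 3 nearest were SLC41A3 (r = 0.9990), PRRX1, a transcription factor of limb and skin mesenchyme (r = 0.9989), and S100A10, the partner of annexin A2 in binding plasminogen (r = 0.9989). PRRX1 stood at 52.4 and 59.7 TPM in early growth, 2.11 and 1.69 TPM in late growth, and 224 and 238 TPM in the resting phase. For MGP they were CCDC80, a matrix protein (r = 0.9997), CYB5R3, a reductase (r = 0.9996), and GPX3, a secreted glutathione peroxidase (r = 0.9995). GPX3 stood at 253 and 226 TPM in early growth, 23.3 and 20.6 TPM in late growth, and 809 and 826 TPM in the resting phase. For RGS5 they were VIM, the intermediate filament of mesenchymal cells (r = 0.9998), TIMP2, an inhibitor of metalloproteinases (r = 0.9994), and P4HA3, which hydroxylates collagen (r = 0.9994). VIM stood at 707 and 661 TPM in early growth, 96.5 and 91.7 TPM in late growth, and 827 and 834 TPM in the resting phase. Some matches dropped far less into late growth than their member. Late minus early growth, CYB5R3 differed by -1.14 on the log2 scale beside -5.36 for MGP, and TIMP2 by -1.27 beside -6.39 for RGS5. With 3 phases many genes reach such values of r: 69 to 152 genes exceeded an r of 0.99 with a given member.

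The same shape occurred in other genes of the table. Taking at least 10 TPM in both early growth libraries and under 1 TPM in both late growth libraries gave 70 of 23724 genes. Of these, 62 had a symbol, and RGS5, MGP and PTGDS were among them. PENK missed it with about 12 TPM in late growth, and CLEC3B with 1.06 TPM in 1 library. In the resting phase 28 of the 70 were called above and 30 below early growth (15.8% and 34.0% over all genes), 12 were not called, and 9 stayed under 1 TPM in both resting libraries. The median difference was -0.75, and MGP, PTGDS and RGS5 held places 12, 13 and 28 when the 70 were ordered from the largest difference down. These numbers are a description, since the cutoffs use the growth phases.

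By early growth mean the leading genes of this shape were DES, RGS5, COL4A1, NID1 and MUSTN1. The largest resting differences were those of muscle genes, desmin (DES, 5.66), HSPB7 (5.09) and leiomodin (LMOD1, 4.79). DES stood at 292 and 188 TPM in early growth, 0.319 and 0 TPM in late growth, and 11700 and 12030 TPM in the resting phase. At the other end stood CTSG, a protease of granulocytes (-5.10), ASIP, the agouti antagonist of the melanocortin receptor (-5.10), and the microRNA locus MIR6615 (-4.61), all listed at 0 in both resting libraries. In both late growth libraries ASIP was listed at 0 too, against 24.8 and 44.5 TPM in early growth.

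**Figure D3:**
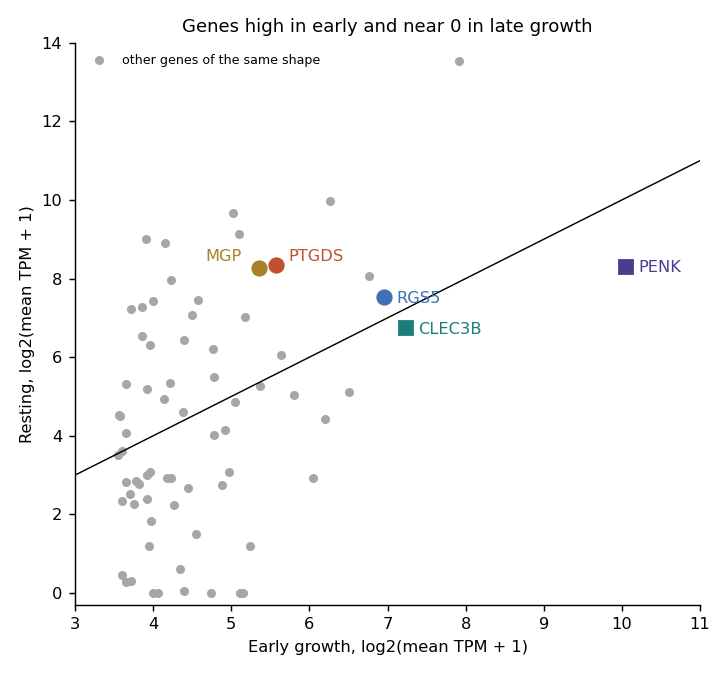
Resting level (vertical axis) against early growth level (horizontal axis), both as log2 of the phase mean TPM plus 1, for 70 genes of at least 10 TPM in both early growth libraries and under 1 TPM in both late growth libraries (circles, with MGP, PTGDS and RGS5 in colour) and for PENK and CLEC3B, which missed these cutoffs (squares). The line marks equal levels: 32 of the 70 genes lie above it, MGP, PTGDS and RGS5 among them, while CLEC3B and PENK lie below it.

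Opioid peptides act through G protein-coupled receptors after convertases and carboxypeptidases have trimmed their precursors, and peptidases such as neprilysin end their action. Of 9 tested genes of this system besides PENK, none was called higher and 6 lower in late growth than in early growth (median -0.76, against -0.31 over all genes; limma, and at an unadjusted p under 0.05 also 0 higher). Over all genes 28.4% were lower and 5.24% higher in late than in early growth, so none higher in a short list is not read as a result. In the resting phase 24.7% were higher and 23.1% lower than in late growth. The counts of each list stand beside these shares. From late growth to the resting phase 4 opioid genes were higher and 2 lower (median 1.80). PNOC, the precursor of nociceptin, stood at 394 and 375 TPM in the resting phase, against 36.7 and 37.8 TPM in late growth, a difference of 3.33 (adjusted p = 9.5e-06). Its early growth level was 35.5 and 41.4 TPM, and late growth was not called different from it (-0.04, adjusted p = 0.80). Without late growth replicate 1 the count of opioid genes lower in late growth was 3.

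The receptor and enzymes of this system moved in both directions. OPRM1, the mu receptor, was lower in late growth, at 3.74 and 2.65 TPM, against 14.8 and 12.8 TPM in early growth (log2 difference -1.83, adjusted p = 0.0030). In the resting phase it stood at 14.9 and 13.5 TPM (resting minus late 1.87, adjusted p = 0.0012). The carboxypeptidases CPE and CPD were lower in the resting phase than in late growth, by -1.40 and -1.11 (adjusted p = 0.00013 and 0.00041). MME, which encodes neprilysin, an enkephalin-degrading peptidase, stood at 5.42 and 4.52 TPM in the resting phase and was listed at 0 in both late growth libraries. The delta and kappa receptors, OPRD1 and OPRK1, had no library above 0.312 TPM.

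Prostaglandin D2 is made from arachidonic acid by a cyclooxygenase and then a D synthase, and each prostaglandin has its own synthases and receptors. Of 16 tested genes besides PTGDS, none was higher and 5 were lower in late than in early growth (median -0.53; limma, with 1 higher at an unadjusted p under 0.05). The lower count was close to the 28.4% of all genes. In the resting phase 6 were higher and 3 lower than in late growth (median -0.11, which was 0.06 when TPM were rescaled without erythroid and muscle genes). PTGS1, the constitutive cyclooxygenase, stood at 21.6 and 19.4 TPM in the resting phase, against 1.88 and 1.89 TPM in late growth (2.90, adjusted p = 0.00013). Its early growth level was 11.2 and 11.4 TPM, so it too was lowest in late growth. HPGDS, the other D synthase, had 12.2 and 11.2 TPM in the resting phase and 17.3 and 20.3 TPM in late growth, a difference that was not called (adjusted p = 0.67). Its early growth pair of 13.0 and 0 TPM was far apart and enters the spread used in this test. The resting minus late growth difference of HPGDS was called in 3 of the 16 other settings, with the same sign in all. Leaving out 1 library at a time gave 2 to 7 genes lower and up to 2 higher in late growth for this list, and 1 to 5 lower in the resting phase than in late growth. Of these, leaving out late growth replicate 1 or 2 gave 2 lower in late growth, either resting library 3, and early growth replicate 1 gave 2 higher; early growth replicate 1 or 2 gave 5 lower in the resting phase, and late growth replicate 2 gave 1.

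Among the receptors, PTGER3, for prostaglandin E2, stood at 23.0 and 16.2 TPM in the resting phase, against 0 and 0.294 TPM in late growth (adjusted p = 0.0014). PTGDR, the D2 receptor, stood at 16.6 and 12.8 TPM in the resting phase and 22.5 and 18.0 TPM in late growth, which was not called (adjusted p = 0.11). The E synthase PTGES was higher in the resting phase than in late growth by 3.04 (adjusted p = 0.0051, but 0.0504 without late growth replicate 2 and 0.058 without resting replicate 1), and PTGES3, also known as the chaperone p23, was lower by -1.13 (adjusted p = 0.00023). SLCO2A1, a prostaglandin carrier and the most abundant of the list, had 353 and 376 TPM in the resting phase and 419 and 415 TPM in late growth (-0.20, adjusted p = 0.056).

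Vitamin K-dependent carboxylation, by the enzyme GGCX, turns glutamate into Gla in MGP, osteocalcin and clotting factors. Of 17 tested genes of carboxylation and calcification besides MGP, none was higher and 10 were lower in late than in early growth (median -0.79; limma, with 0 higher at an unadjusted p under 0.05 too). In the resting phase 8 were higher and 4 lower than in late growth (median 1.03). GAS6, a Gla ligand of TAM receptors, stood at 169 and 168 TPM in the resting phase, against 7.08 and 7.42 TPM in late growth (4.36, adjusted p = 7.6e-06). F10, the clotting factor X, differed by 3.98 (adjusted p = 1.4e-05). SPP1, which encodes osteopontin, had 95.6 and 74.6 TPM in the resting phase and was listed at 0 in both late growth libraries. It was near 0 in early growth too, at 0.415 and 0 TPM. GGCX itself had 16.9 and 24.3 TPM in the resting phase and 15.3 and 14.8 TPM in late growth, which was not called (adjusted p = 0.14). From early growth, at 25.9 and 24.6 TPM, its step down into late growth was called (-0.71, adjusted p = 0.04). ALPL, the tissue-nonspecific alkaline phosphatase that promotes calcification, was lower in late growth than in early growth by -1.08 (adjusted p = 0.0016) and had nearly the same level in the resting phase as in late growth (-0.05, adjusted p = 0.73). Without late growth replicate 1 the 10 genes lower in late growth became 5, and the 4 lower in the resting phase became 2 without late growth replicate 1 or resting replicate 1, and 1 without late growth replicate 2 or resting replicate 2.

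Tetranectin binds the kringle domain of plasminogen, which PLAT and PLAU activate. Of 9 tested genes of this system and of C-type lectins related to CLEC3B, 1 was higher and 5 were lower in late than in early growth (median -0.74), and 5 were higher and 3 lower in the resting phase than in late growth (median 1.20). The activators split. PLAT, the tissue activator, was higher in the resting phase than in late growth, at 8.36 and 8.24 TPM against 1.21 and 0.656 TPM (adjusted p = 0.0012). PLAU, or urokinase, was lower, at 3.58 and 2.18 TPM against 21.8 and 25.4 TPM (adjusted p = 0.00025). S100A10 and SERPINF2, the inhibitor of plasmin, were higher by 3.23 and 3.33 (adjusted p = 1.0e-05 and 0.0012), and the plasminogen-binding ENO1 and ANXA2 were lower by -1.03 and -0.77 (adjusted p = 2.7e-05 and 9.7e-05). Plasminogen itself, PLG, was listed at 0 in all 6 libraries. Without late growth replicate 1 the number lower in late growth was 3.

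RGS proteins shorten signalling by G protein alpha subunits. Of 12 tested members of this family besides RGS5, 1 was higher and 3 were lower in late than in early growth (median -0.59), the lower ones no larger a share than the 28.4% of all genes. Of the 12, 6 were higher and none lower in the resting phase than in late growth (median 1.38, beside 24.7% higher and 23.1% lower over all genes; limma, with 0 lower at an unadjusted p under 0.05 too). RGS4 followed the dip of RGS5, at 15.3 and 9.38 TPM in early growth, 0.388 and 0 TPM in late growth, and 7.91 and 9.07 TPM in the resting phase. RGS2 and RGS14 were higher in the resting phase than in late growth by 2.09 and 1.91 (adjusted p = 0.00022 and 0.00067). RGS12, the family member of highest mean besides RGS5, had 36.7 and 39.7 TPM in the resting phase and 45.5 and 53.9 TPM in late growth (adjusted p = 0.28). The counts in late against early growth shrank under other scalings, to 4 of 9 opioid genes, 1 of 12 RGS genes, 7 of 17 genes of carboxylation and calcification, 3 of 9 plasminogen genes and 2 of 16 prostaglandin genes lower at the least. For the RGS list the 6 genes higher in the resting phase became 3 without late growth replicate 2 or either resting library, and the late growth count of lower genes was 1 without late growth replicate 1 and 5 without early growth replicate 2. The 1 RGS gene higher in late growth was not called without a late growth or resting library, and 3 were called without early growth replicate 1.

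Sums of several cell type marker lists were also lowest in late growth. The size of these steps is not compared with the 5 genes, which were picked for their drop. A sum follows its most abundant genes, and single markers differed widely. Late minus early growth, COL1A2 differed by -5.74 on the log2 scale and DCN by -1.37. The late growth sum was 12.2% of that of early growth for endothelium, 16.5% for fibroblasts and 55.1% for mural cells. For keratinocytes it was 81.4%, and their sum, mostly KRT5 and KRT14, was lowest in the resting phase. Against early growth, 4 of 17 keratinocyte genes were higher in the resting phase and 8 lower (15.8% and 34.0% over all genes). COL17A1 was highest there, at 1408 and 1471 TPM. Fibroblast and papilla genes were lower in late than in early growth in 24 of 25 tested, and 22 were higher and 2 lower in the resting phase than in late growth. Against early growth, 11 of the 25 were higher in the resting phase and 8 lower (15.8% and 34.0% over all genes), so these markers too returned unequally. The 8 became 5 with median-of-ratios scaling, quantile normalization or without resting replicate 1. THY1 and POSTN were above early growth in the resting phase (2.78 and 3.79, adjusted p = 0.00014 and 0.00019), and COL1A2 and COL14A1 below it (-1.02 and -3.45, adjusted p = 0.00057 and 3.3e-05). The list as a sum came to 132% of its early growth mean in the resting phase, between CLEC3B and RGS5.

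Mural cell genes, the markers of pericytes beside which RGS5 is usually read, were lower in late than in early growth in 8 of 9 tested, and 6 were higher and 1 lower in the resting phase than in late growth. The other scalings gave 4 to 8 of 9 for the first count, and leaving out either late growth library gave 3. The second count, 6 higher in the resting phase, was 3 with a filter at a mean of 5 TPM, 8 when TPM were rescaled without erythroid and muscle genes, and 4 without either late growth library. PDGFRB, the receptor that recruits pericytes, stood at 11.5 and 10.1 TPM in early growth, 0.438 and 0.201 TPM in late growth, and 21.7 and 22.6 TPM in the resting phase. CSPG4, the proteoglycan NG2, stood at 6.16 and 5.86 TPM in early growth, 1.01 and 0.708 TPM in late growth, and 45.5 and 43.4 TPM in the resting phase. FOXC1 moved the other way after late growth, with 1.81 and 3.56 TPM in the resting phase, against 35.3 and 28.6 TPM in late growth. As a sum the mural list had 350 and 340 TPM in early growth, 195 and 185 TPM in late growth and 262 and 292 TPM in the resting phase. MCAM alone held much of these sums, with 208 and 190, 145 and 141, and 148 and 174 TPM in the same order. ABCC9, TBX18, FOXF2 and ANGPT1 of this list were at 0 in both late growth libraries. They were low in early growth too: TBX18 had 2.32 and 1.81 TPM, ABCC9 2.76 and 0 TPM, ANGPT1 0.099 and 0 TPM. FOXF2 was at 0 in both early growth libraries.

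Muscle, endothelial and blood cell markers moved as well. All 15 tested smooth muscle genes were higher in the resting phase than in late growth, and their list summed to 4200 and 3438 TPM in early growth, 1201 and 1331 TPM in late growth, and 53230 and 54610 TPM in the resting phase. Of 17 endothelial genes 11 were higher and 1 lower in the resting phase than in late growth (24.7% and 23.1% over all genes). Against early growth none was higher (limma, 0 also at an unadjusted p under 0.05) and 9 were lower. In that comparison 15.8% of all genes were higher and 34.0% lower. The endothelial list came to 49.3% of its early growth mean. The erythroid list summed to 1344 and 1477 TPM in early growth, 1007 and 896 TPM in late growth, and 55200 and 55500 TPM in the resting phase. Of 12 tested, 10 were higher and 1 lower in the resting phase than in late growth. HBBR alone had 20030 and 20070 TPM in the resting phase and was at 0 in both late growth libraries. The lower gene was HBBA, at 290 and 249 TPM in the resting phase, against 365 and 329 TPM in late growth. Leukocyte genes came to 173% of their early growth mean and keratinocyte genes to 77.5%. CD74 held most of the leukocyte sum, with 379 and 346 TPM in early growth and 705 and 654 TPM in the resting phase. PLN and CASQ2 of the smooth muscle list and ROBO4 of the endothelial list were at 0 in both late growth libraries. In early growth CASQ2 was at 0 in both libraries, PLN had 0.565 and 0 TPM, and ROBO4 had 3.97 and 2.12 TPM. The part of these cell types in the values of the 5 genes was not tested.

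**Figure D4:**
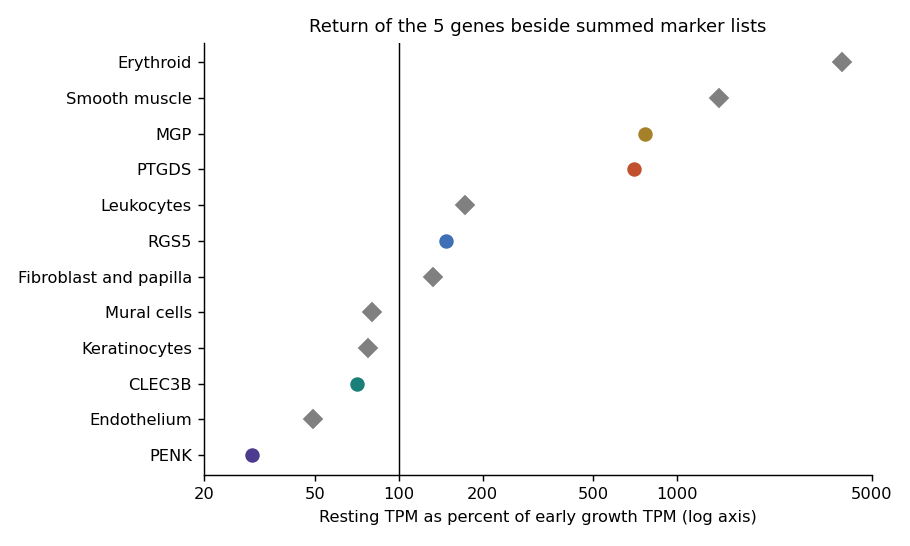
Resting mean TPM as a percentage of early growth mean TPM (horizontal axis, log scale) for the 5 genes (coloured circles) and for the summed TPM of marker lists (grey diamonds); the line marks 100%. PENK at 29.6% lies lowest, below the endothelial list at 49.3%, and MGP at 763% and PTGDS at 699% lie between the leukocyte list at 173% and the smooth muscle list at 1412%.

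Because the TPM values of a library share a fixed total, the scaling bears on each difference from the resting phase. With 30 tested erythroid and muscle genes removed and TPM rescaled, the resting minus early growth differences were -1.58 for PENK, -0.33 for CLEC3B, 2.99 for PTGDS, 3.07 for MGP and 0.73 for RGS5. Of these only that of CLEC3B was not called (adjusted p = 0.10). Over all genes, the calls in the resting phase against early growth were 2063 higher and 4437 lower as deposited, 3135 and 2973 with median-of-ratios scaling, and 3026 and 3395 with quantile normalization. Those in late against early growth were 684 higher and 3710 lower as deposited, 1728 and 1968 with median-of-ratios scaling, and 1611 and 1775 with quantile normalization. The median of all genes in the resting phase against early growth was -0.27 as deposited, and 0.03, -0.04 and -0.12 with median-of-ratios, quantile and rescaled values. Under none of these scalings did any of the 5 genes change the sign of its difference from late or from early growth in the resting phase.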

How the data were processed

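Papilla ectoderm of contour follicles was profiled in 6 libraries, 2 for each of 3 phases, grouped by the labels, which give all of them 1 batch. TruSeq libraries, whose kit does not mark strand, were sequenced as single reads of 50 cycles. The deposited TPM values were made by the authors with StringTie at default settings on GRCg6a, while the sources used here do not give an aligner. Read counts per library are unknown, so precision rests on the spread between 2 libraries. The count model of the study's methods does not suit TPM, so a log-scale model took its place.

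Values were analysed as log2(TPM + 1) in R 4.3.3 with limma 3.58.1, in 1 linear fit with a mean for each of the 3 phases and a trended prior variance (3.01 prior degrees of freedom), over the 13063 genes with a mean above 1 TPM. P values were adjusted by Benjamini-Hochberg over all of them and called under 0.05. On simulated data with known changes the fit was checked first. These data were drawn without a floor at 0 TPM, so the check does not cover genes listed at or near 0. Replicate numbers were not taken to pair libraries in this fit. Columns of the table that were not used numbered 0.

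The members and all gene lists were chosen with earlier results of these data known, so no list is independent evidence. List genes were matched by exact symbol, and the 5 members were left out of every other list. Genes named are the members, the 3 genes with a symbol most correlated with each, the 3 most abundant members of each list with the 2 largest called changes from late growth to resting for the pathway lists, and the leading genes of the same shape. OPRM1, OPRD1, OPRK1, PTGS1, HPGDS, PTGDR, GGCX, PLAT, PLAU, PLG, THY1, POSTN, COL14A1, PI15, the markers at 0 and the genomic neighbours were named after their values were seen. Not every gene that the rule covers has its values in the text. The alternatives were other pseudocounts (0.1 and 0.5), other filters (none, or a mean above 5 TPM), other scalings (median-of-ratios, quantile, or TPM recomputed after erythroid and muscle genes were taken out), other fits (robust, pairwise, or blocked on the replicate number), leaving out each library in turn, and 2 stricter thresholds, the second of them (log2 fold change over 2, adjusted p under 0.01) as in the study's methods. Overlapping and neighbouring genes were taken by name from RefSeq GRCg7b. Protein and promoter sequences were not used here.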

Additional observations from a re-analysis of the deposited data

How the results depend on the processing

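All 5 genes were called higher in the resting phase than in late growth under all 16 other settings of the fit and at both stricter thresholds. Since the late growth values helped choose these genes, they had little room to be called otherwise, and these calls add no support of their own. Against early growth, the count of the 5 genes called lower was 1 instead of 2 with a pseudocount of 0.1, median-of-ratios scaling, quantile normalization, rescaling without erythroid and muscle genes, and a log2 fold change over 1, and 0 with a log2 fold change over 2 and adjusted p under 0.01. With the replicate block it was also 1, since CLEC3B had an adjusted p of 0.052; the block changed no other call of the 5 genes. Between phases, the deviations of same-numbered libraries had correlations of -0.0289, 0.0083 and 0.0149. These values gave no sign of pairing, but with 2 libraries a phase they cannot exclude it. Leaving out 1 library gave 1 to 2 called lower. The 3 called higher became 2, with RGS5 lost, without either resting library and at both stricter thresholds. Over all genes, leaving out 1 library gave 230 to 1588 higher and 1499 to 3893 lower in late against early growth, 2047 to 3864 higher and 1873 to 3536 lower in resting against late growth, and 1259 to 3049 higher in resting against early growth. Late against early growth had 1728 higher and 1968 lower with median-of-ratios scaling, 1611 and 1775 after quantile normalization, and 452 higher with only these phases fitted. Resting against early growth had 3135 higher with median-of-ratios scaling. With a log2 fold change over 1, late against early growth had 259 higher and 1965 lower, resting against late growth 1454 lower, and resting against early growth 2484 lower. With a log2 fold change over 2 and adjusted p under 0.01 these were 85 higher and 519 lower, 1083 higher and 478 lower, and 538 higher and 689 lower, in that order. The lower counts at stricter thresholds follow from the thresholds; the cause of the others was not tested. Of the counts of pathway, mural and fibroblast genes under all settings, 637 were within 1.5 times the reported count and 119 were not.

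With 2 libraries a phase, each call rests on the spread shared over all genes, and a phase left with 1 library is assumed to vary like the others. The resting phase and its muscle and blood transcripts, and late growth and the zeros of PTGDS and MGP, cannot be told apart from other differences between these libraries. At an unknown depth a value listed at 0 does not show that a transcript is absent.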

Other observations

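The genes next to the 5 members were looked at by name, 2 on either side of each in RefSeq GRCg7b. Of 20 neighbours 19 were in the table and 14 were tested. Of these, 4 were lower in late than in early growth, and 5 were higher and 1 was lower in the resting phase than in late growth, beside 28.4%, 24.7% and 23.1% of all genes. FBXW5, 2 genes from PTGDS, was the 1 neighbour that did both as the members do. It stood at 32.5 and 27.3 TPM in early growth, 20.5 and 19.7 TPM in late growth, and 53.6 and 62.5 TPM in the resting phase.

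EXFABP, a lipocalin like PTGDS and 2 genes from it, was higher in the resting phase, at 76.8 and 109 TPM against 10.97 and 10.65 TPM in late growth (log2 difference 2.97, adjusted p = 0.00012). Its early growth level was 7.14 and 6.97 TPM. Beside MGP, OC3 stood at 22.9 and 15.5 TPM in the resting phase and was listed at 0 in all libraries of both growth phases. CDCP1, which overlaps CLEC3B, stood at 66.5 and 55.4 TPM in early growth, 30.7 and 34.7 TPM in late growth, and 36.1 and 33.0 TPM in the resting phase, so the near absence of CLEC3B in late growth was not shared by it. RGS18, beside RGS5, had no library above 4.05 TPM.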
